A study of Mus musculus with 9 samples.

Results

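CD73, the product of Nt5e, is an enzyme anchored on the outer face of the plasma membrane, and the genes around it make, move and remove extracellular adenosine. The genes followed here were Nt5e, the ectonucleotidases Entpd1 and Entpd2, the adenosine receptors Adora1, Adora2a and Adora2b, the nucleoside transporter Slc29a1, adenosine kinase Adk and adenosine deaminase Ada. Members were all microarray probe sets annotated to 1 of these 9 symbols alone. Probe sets for 6 of the 9 genes were found, 15 among the 45101 of the array, and these 6 genes stand among 18193 genes tested. The receptors Adora1, Adora2a and Adora2b were not analysed here. Where a gene had several probe sets, the one with the highest mean over the 9 arrays represented it.

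Extracellular ATP is broken down in steps: Entpd1 (CD39) takes ATP and ADP to AMP, Entpd2 takes mainly ATP to ADP, and CD73 removes the last phosphate to leave adenosine. Adenosine acts on G-protein-coupled receptors, which raise or lower cyclic AMP through adenylyl cyclases, and equilibrative transporters such as Slc29a1 (ENT1) carry it across the membrane. Inside the cell Adk returns adenosine to AMP, and Ada converts it to inosine. In the mouse retina CD73 is known as a surface antigen of photoreceptors from their early precursor stage, and antibodies to it are used to sort young rods.

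The arrays compared 3 groups of sorted retinal cells, with 3 replicates each. Mice of the rhoEGFP line, a rod reporter, gave rhoGFP-positive and rhoGFP-negative cells at postnatal day 4 (P4). Mice of the pNestin-GFP line, a reporter for the progenitor filament nestin, gave nestinGFP-positive cells at postnatal day 0 (P0). All groups had the genetic background C57BL/6J-129/Ola, and every replicate was a pool of retinae from 6 to 8 pups. The nestinGFP-positive group differs from the others in line and in age at once, so line, age and sorted population cannot be told apart in comparisons with it. The rhoGFP-negative group is everything in the P4 retina without detectable GFP and so a mixture of cell types; the gates and the purity of the fractions are not stated in the labels.

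The values are log2 expression from the robust multi-array average (RMA), with array medians of 6.08 to 6.17. A gene was called when limma's Benjamini-Hochberg adjusted p over all genes was below 0.05 and the difference was at least 1 on the log2 scale, which is 2-fold. The labels were checked on marker genes: all 12 measured rod markers were called higher in rhoGFP-positive cells in both of their comparisons, and 12 of 13 progenitor markers were called lower in both. The median of the rod markers lay at 12.35 to 12.49 on the rhoGFP-positive arrays, 8.61 to 9.47 on the rhoGFP-negative arrays and 7.08 to 8.47 on the nestinGFP-positive arrays. Control probe sets for 18S ribosomal RNA stood at 12.13 to 13.62 on the replicate 1 arrays and at 9.65 to 10.44 on the others, and its part in the members' values was not tested. The actin control probe sets gave a 3′ minus 5′ difference, a sign of RNA integrity, of 0.85 to 0.97 in the rhoGFP-positive, 0.64 to 0.68 in the rhoGFP-negative and 0.40 to 0.99 in the nestinGFP-positive arrays, whose part in the differences was not tested. In RNA from pooled cells, fewer cells of a type and less RNA per cell cannot be told apart.

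The promoters of Nt5e and Entpd2 are shown because these are the members called between the P4 fractions, in opposite directions. Each line gives the 250 bases before the annotated start, 5′ to 3′ on the gene's strand, from RefSeq on GRCm38.p6. Nt5e lies on the forward strand at chr9:88327359-88327608 and Entpd2 on the forward strand at chr2:25395624-25395873.
Nt5e: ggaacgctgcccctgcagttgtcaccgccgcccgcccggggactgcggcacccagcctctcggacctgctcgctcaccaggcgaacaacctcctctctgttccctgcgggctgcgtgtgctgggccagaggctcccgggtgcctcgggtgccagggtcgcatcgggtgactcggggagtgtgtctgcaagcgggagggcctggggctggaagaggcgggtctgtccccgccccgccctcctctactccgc
Entpd2: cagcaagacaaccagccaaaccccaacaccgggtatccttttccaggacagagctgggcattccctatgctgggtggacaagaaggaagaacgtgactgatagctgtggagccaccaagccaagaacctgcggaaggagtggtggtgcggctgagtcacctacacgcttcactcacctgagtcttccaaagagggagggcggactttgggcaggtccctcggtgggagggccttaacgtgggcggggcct
All letters are in lower case because none of the motifs searched was found. The GC content was 72.0% in the Nt5e window and 59.2% in the Entpd2 window, against a median of 52.4% over 32851 promoter windows. The search covered 300 bases, 50 of them after the start, on both strands, for the Crx/Otx core TAATCC, the Nrl/Maf half-site TGCTGAC, the cyclic AMP response half-site TGACG and the nuclear receptor half-site AGGTCA. The letters of TGCTGAC run into those of TGACG, so matches of these 2 can overlap. These letters occur in 7.06%, 4.67%, 20.8% and 16.3% of all windows, in that order. Of 18 windows of 8 member genes, TAATCC was in 1, of Slc29a1, TGCTGAC in 0, TGACG in 4, of Adk, Entpd1 and Slc29a1, and AGGTCA in 2, both of Slc29a1.

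Nt5e was the member with the widest range between groups. Its log2 values were 11.45, 11.32 and 11.35 in rhoGFP-positive replicates 1 to 3, 10.11, 9.70 and 9.15 in the rhoGFP-negative replicates, and 8.05, 7.56 and 6.34 in the nestinGFP-positive replicates. The 3 groups did not overlap: every rhoGFP-positive array was above every rhoGFP-negative array, and these were above every nestinGFP-positive array. The rhoGFP-positive arrays lay close together, while the other groups spread over about a log2 unit or more. The means were 11.37 ± 0.068 (SD, n = 3), 9.65 ± 0.48 and 7.32 ± 0.88. Replicate 1, with high 18S signal, was the highest array of each group; without replicate 1 in all groups the differences described next were 1.91, 4.38 and 2.48, all called.

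**Figure D1:**
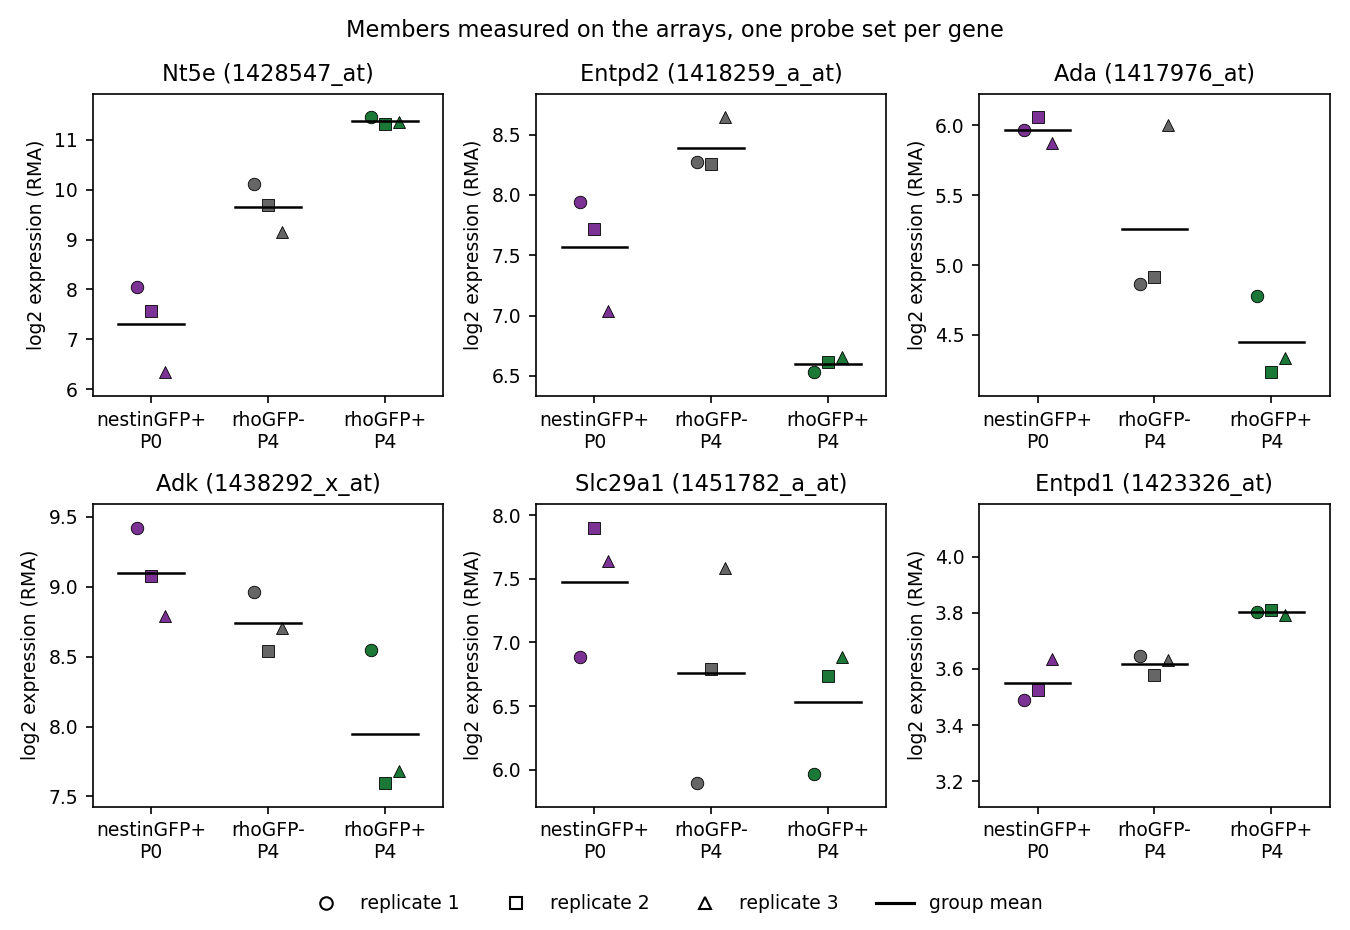
Log2 expression (RMA) of the 6 measured members on each of the 9 arrays, 1 panel per gene with its own scale; points are replicates and lines are group means. Nt5e is highest in the rhoGFP-positive cells (mean 11.37), Entpd2 lowest there (6.60), and Ada and Adk are highest in the nestinGFP-positive cells (5.97 and 9.10).

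Between the P4 fractions, which ask what marks young rods within the retina of 1 age, Nt5e was higher in the rhoGFP-positive cells by 1.72 ± 0.39 (log2, SE; 3.29-fold, limma adjusted p = 0.00892). Entpd2 was lower in the same cells by a like amount, and the other 4 measured members were not called. Thus 2 of 6 members were called, 1 higher and 1 lower, where 10.9% of all genes were called. By size, Nt5e ranked 232 among the 656 genes called higher and Entpd2 436 among the 1332 called lower. The median difference of the 6 members was -0.51, against 0.01 over all genes.

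Against the nestinGFP-positive cells, Nt5e was higher in the rhoGFP-positive cells by 4.05 ± 0.39 (16.6-fold, limma adjusted p = 3.3e-05), rank 20 among 921 genes called higher. In this comparison 3 of 6 members were called, Nt5e higher and Ada and Adk lower, where 15.6% of all genes were called. The members' median difference was -0.96, against 0.06 over all genes. Both comparisons use the same rhoGFP-positive arrays. With no minimum difference, 3 of 6 members passed an adjusted p of 0.05 between the P4 fractions (24.3% of all genes), 4 of 6 against the nestinGFP-positive cells (35.8%), and 1 of 6 between the other two groups (2.03%).

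Nt5e was also higher in the rhoGFP-negative than in the nestinGFP-positive cells, by 2.33 ± 0.39 (5.04-fold, limma adjusted p = 0.0239), which made it rank 1 of the 70 genes called higher. It was the 1 member of 6 called there, where 0.989% of all genes were called, 0.385% higher and 0.605% lower. The members' median difference was -0.15, against 0.03 over all genes. This call is close to its limit: it was lost, with differences of 2.11 to 2.46, when rhoGFP-positive replicate 2 (adjusted p = 0.0509), rhoGFP-negative replicate 1 (0.0831) or 2 (0.0826) or nestinGFP-positive replicate 2 (0.0814) was left out. It was also lost when only the 6 arrays compared were fitted (adjusted p = 0.0842). With the replicate number as a block it was called (adjusted p = 0.00104), and within numbers 1 to 3 the difference was 2.05, 2.14 and 2.81. These groups share no pool of mice, so the number joins their arrays by label alone.

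**Figure D2:**
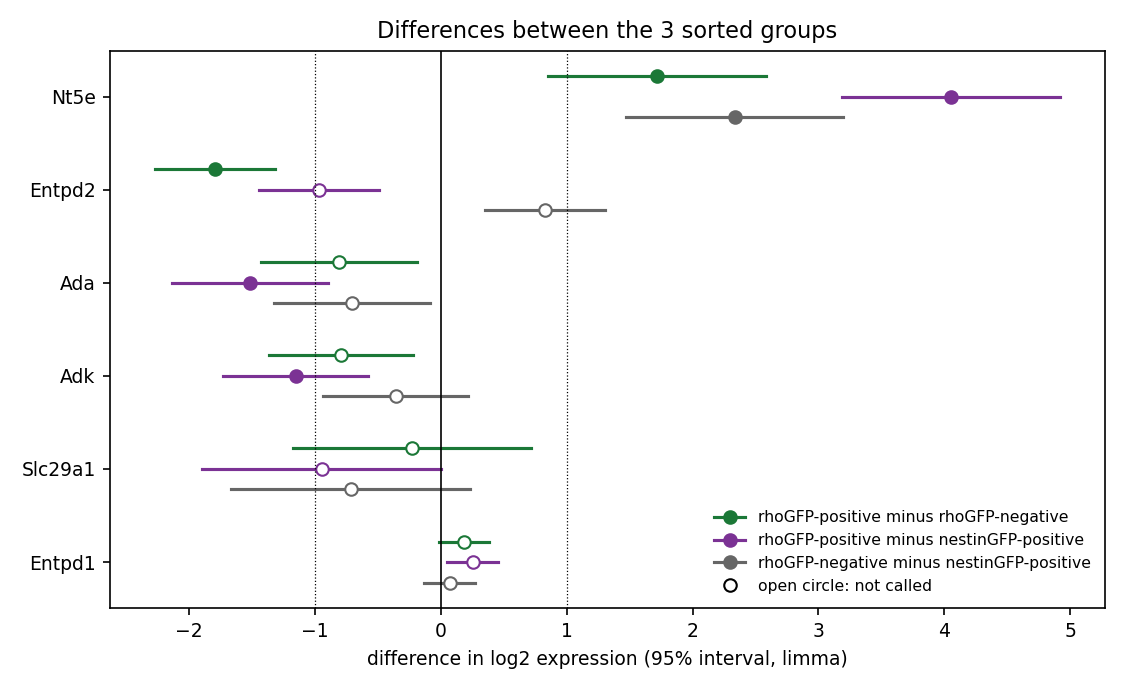
Difference in log2 expression with its 95% interval from limma for the 6 members in the 3 comparisons; filled circles were called, open ones were not, and dotted lines mark a 2-fold difference. Nt5e lies to the right in all 3 comparisons (1.72, 4.05 and 2.33), and Entpd2 changes side, at -1.79, -0.97 and 0.83.

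Within the rhoGFP-negative and nestinGFP-positive groups the arrays with higher Nt5e also had higher rod markers. In the rhoGFP-negative replicates 1 to 3 the rod marker medians were 9.47, 8.99 and 8.61, beside Nt5e at 10.11, 9.70 and 9.15. In the nestinGFP-positive replicates they were 8.47, 8.06 and 7.08, beside Nt5e at 8.05, 7.56 and 6.34. Of the 12 rod markers, 1 was called between these 2 groups, higher in the rhoGFP-negative cells. The median difference of the 12 was 0.70, and 4 had an unadjusted limma p below 0.05. Over all genes the median was 0.03, and 3285 of 18193 had an unadjusted p below 0.05. The part of rod transcripts in the Nt5e difference between these 2 groups was not tested.

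**Figure D3:**
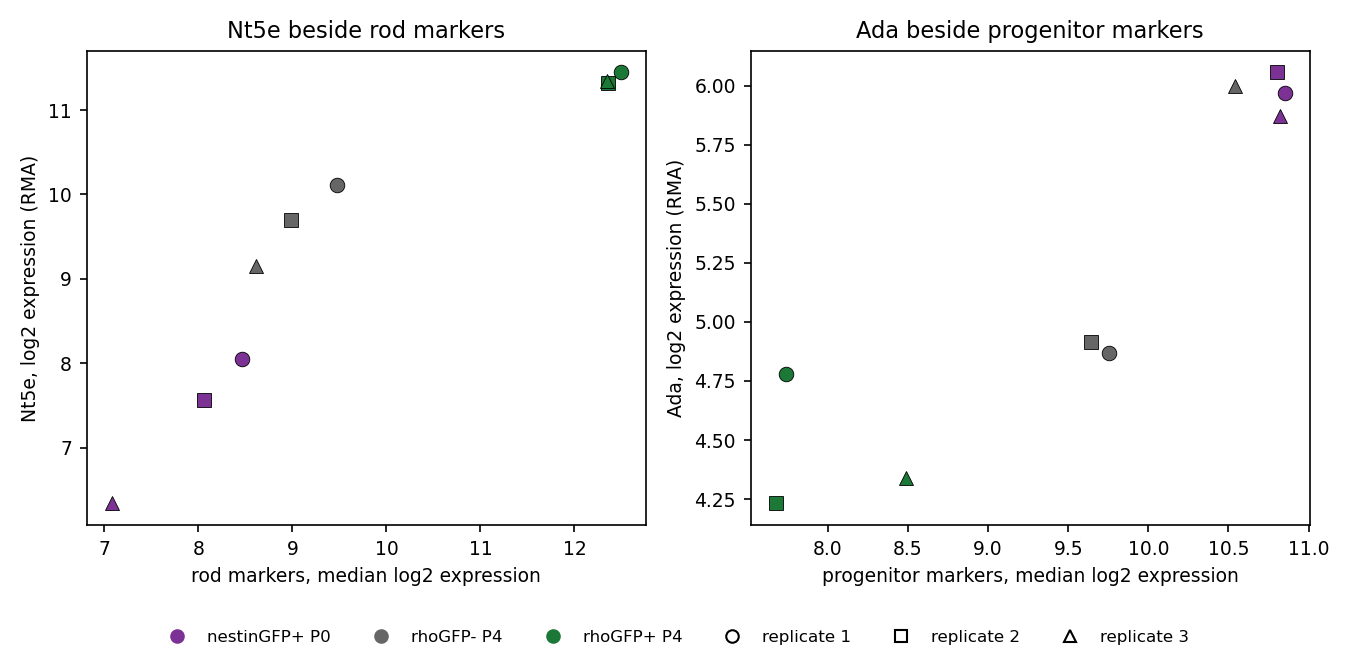
Left, Nt5e against the median of 12 rod markers on each array; right, Ada against the median of 13 progenitor markers, all in log2 expression (RMA). Nt5e is high where rod markers are high (12.35 to 12.49 on the rhoGFP-positive arrays), and rhoGFP-negative replicate 3, with progenitor markers at 10.54, has Ada at 6.00, among the nestinGFP-positive values.

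The probe sets of Nt5e differed in level and in size of response. The represented values come from 1428547_at. A second, 1422974_at, read 9.12, 7.70 and 8.00 in the rhoGFP-positive, 7.98, 6.53 and 6.80 in the rhoGFP-negative and 6.58, 6.35 and 5.87 in the nestinGFP-positive replicates. Here the P4 fractions overlapped, because replicate 1 was high in every group. Its difference between the P4 fractions was 1.17 ± 0.44, not called over all probe sets (adjusted p = 0.112), and with the replicate number as a block it was called (adjusted p = 0.00587). Taken within replicate numbers it was 1.14, 1.17 and 1.21, in each pair higher in the rhoGFP-positive cells. Against the nestinGFP-positive cells it was called, at 2.01 ± 0.44 (limma adjusted p = 0.00818). The replicate 1 arrays are those with high 18S signal, and the part of that signal in the spread was not tested.

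The third Nt5e probe set, 1459023_at, gave 5.15 to 5.53 on all 9 arrays and no call. With the mean of the 3 probe sets the Nt5e differences were 0.91, 2.01 and 1.10 in the order above, and only the second was called. Such levels are those of probe sets that carry little signal in the retina: 83 probe sets of olfactory, vomeronasal and taste receptors had a median of 3.92 and a 95th percentile of 5.84. By that limit 8 of the 15 member probe sets were low in all 3 groups, namely this one, all 3 of Entpd1 and 4 of the 6 of Adk. Over all probe sets limma called 2 of the 15 between the P4 fractions, where 8.02% of probe sets were called, 4 against the nestinGFP-positive cells (12.2%) and 1 when nestinGFP-positive cells were set against rhoGFP-negative cells (0.444%). These were probe sets that represent their genes, and Nt5e 1422974_at.

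**Figure D4:**
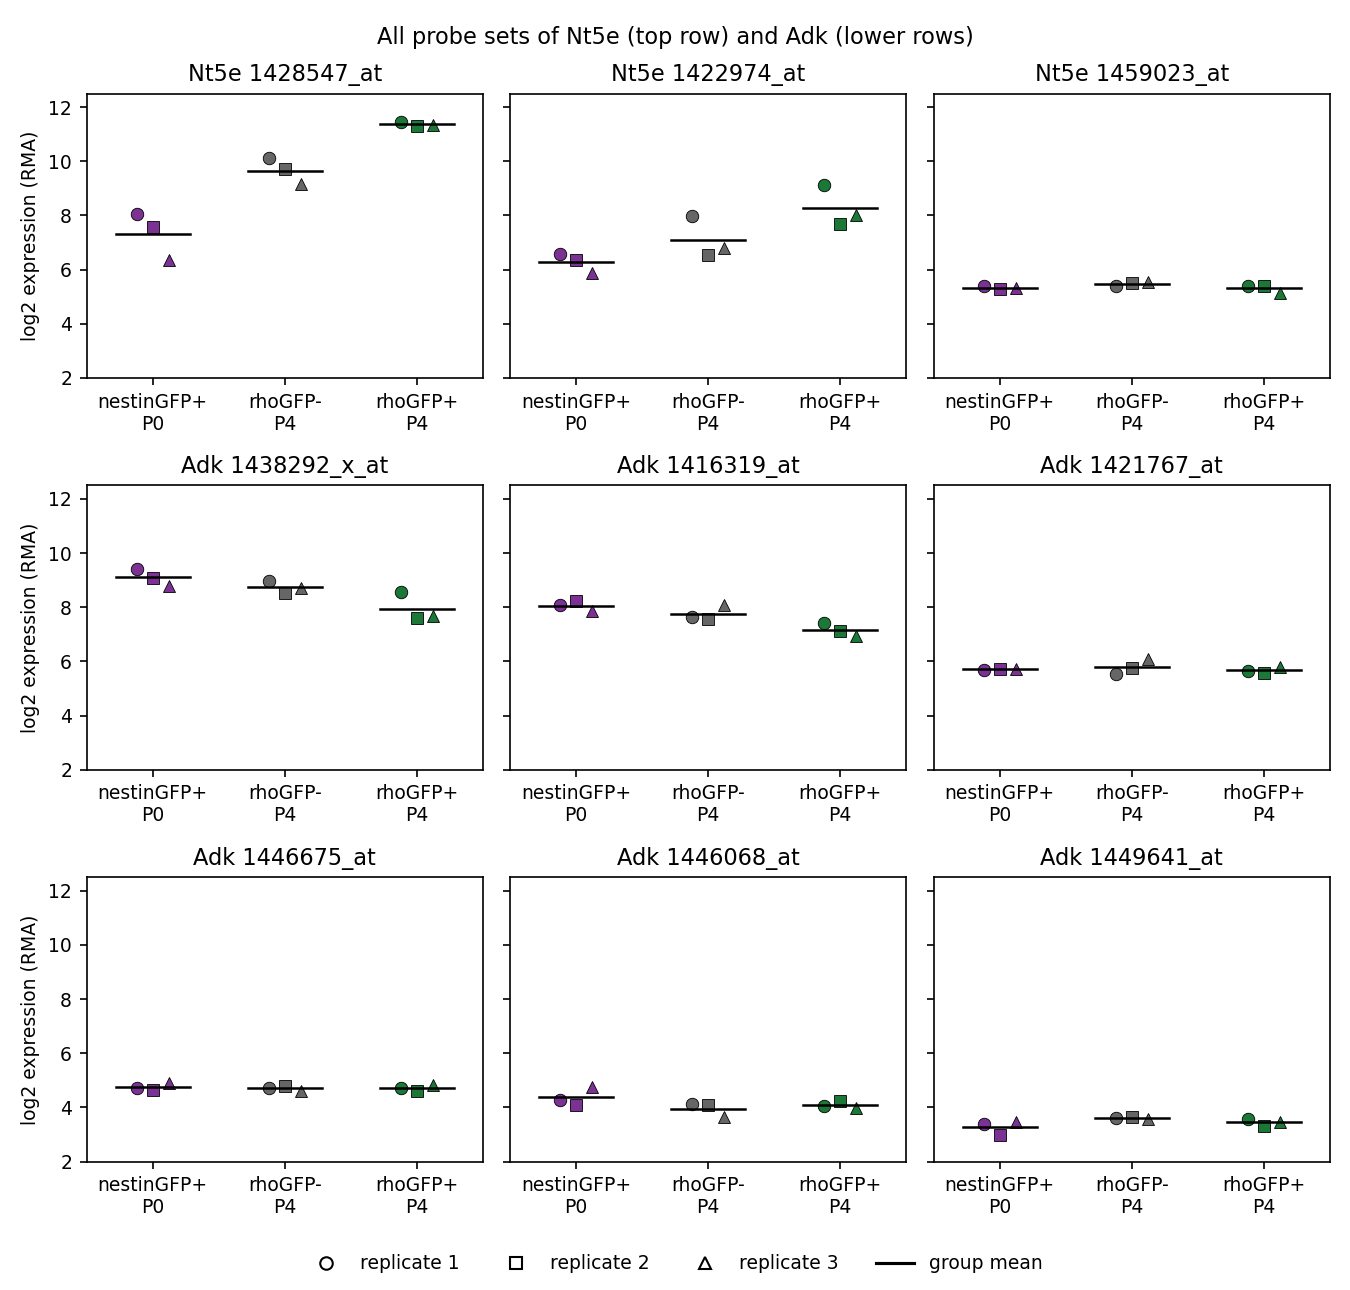
Log2 expression (RMA) of the 3 probe sets of Nt5e (top row) and the 6 of Adk (lower rows) on each array, all on 1 scale, with points for replicates and lines for group means. The upper 2 probe sets of Nt5e step up toward the rhoGFP-positive cells while 1459023_at stays at 5.15 to 5.53, and 4 Adk probe sets stay at low signal.

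Upstream of CD73, Entpd2 showed another order of groups. Its values were 6.53, 6.61 and 6.65 in the rhoGFP-positive, 8.27, 8.26 and 8.64 in the rhoGFP-negative and 7.94, 7.71 and 7.04 in the nestinGFP-positive replicates. The groups did not overlap, with the rhoGFP-negative arrays highest and the rhoGFP-positive arrays lowest. The difference between the P4 fractions was -1.79 ± 0.21 (3.47-fold lower in rhoGFP-positive cells, limma adjusted p = 0.000211), and it was called without any single array, at -1.86 to -1.67. Against the nestinGFP-positive cells it was -0.97 ± 0.21 (adjusted p = 0.00537), just under the 2-fold minimum, and it passed without nestinGFP-positive replicate 3 (-1.23). The rhoGFP-negative cells were above the nestinGFP-positive cells by 0.83 ± 0.21 (adjusted p = 0.0779), not a call, and it was called without nestinGFP-positive replicate 1 (1.02, adjusted p = 0.0392).

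Entpd2 is known from glial and progenitor-like cells in several tissues. Of 8 Müller glia markers 5 were called lower in the rhoGFP-positive cells in each of their comparisons. Their median lay at 7.18 to 8.16 on the rhoGFP-positive, 9.96 to 10.48 on the rhoGFP-negative and 9.31 to 10.01 on the nestinGFP-positive arrays. Other lists were lower between the P4 fractions too. Of 13 progenitor markers 12 were called lower, and of 9 amacrine and ganglion markers 5. The median differences were -2.235 and -2.268, beside -1.426 for the Müller glia markers. The part of any of these markers in the Entpd2 difference was not tested.

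Entpd1, which is abundant on microglia and vascular endothelium, was near the floor of the array. Its highest probe set gave 3.80, 3.81 and 3.79 in the rhoGFP-positive, 3.65, 3.58 and 3.63 in the rhoGFP-negative and 3.49, 3.53 and 3.64 in the nestinGFP-positive replicates. The rhoGFP-positive arrays were above all others, by 0.18 ± 0.090 (limma adjusted p = 0.189) and 0.25 ± 0.090 (0.0522), neither called and both at low signal. Of 13 microglia markers 0 were called between the P4 fractions (1 at an unadjusted p below 0.05 in limma) and 1 was called higher in the rhoGFP-positive than in the nestinGFP-positive cells. In that second comparison 8 of the 13 had an unadjusted and 5 an adjusted p below 0.05, in either direction, with a median difference of 0.58. Over all 18193 genes 8162 had an unadjusted p below 0.05 there and 35.8% an adjusted p below 0.05, with a median difference of 0.06. Both microglia counts include Cd68, which was lower in the rhoGFP-positive cells (-0.97, limma adjusted p = 0.0388). The part of these markers in the Entpd1 values was not tested. Of 14 endothelial and mural markers 2, Cldn5 and Kdr, were called lower in the rhoGFP-positive cells in both comparisons.

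The group means of both genes that remove adenosine were lowest in the rhoGFP-positive cells, a difference called against the nestinGFP-positive cells. Ada, the deaminase, read 4.78, 4.23 and 4.34 in the rhoGFP-positive, 4.87, 4.91 and 6.00 in the rhoGFP-negative and 5.97, 6.06 and 5.87 in the nestinGFP-positive replicates. The rhoGFP-positive arrays lay below all others, and rhoGFP-negative replicate 3 stood with the nestinGFP-positive arrays. Ada was called lower against the nestinGFP-positive cells, at -1.52 ± 0.28 (2.86-fold, limma adjusted p = 0.00193). Its difference between the P4 fractions was -0.81 ± 0.28 (adjusted p = 0.0622), called at -1.01 without rhoGFP-negative replicate 1 and down to -0.44 without replicate 3.

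The array that stood apart for Ada also stood apart for progenitor markers, whose median was 10.54 on it, 9.76 and 9.65 on the other rhoGFP-negative arrays and 10.80 to 10.85 on the nestinGFP-positive arrays. Without it, Ada was called lower in the rhoGFP-negative than in the nestinGFP-positive cells (-1.08, limma adjusted p = 0.00882), against -0.71 ± 0.28 (0.217) with it. The part of progenitor transcripts in these values was not tested. The highest group mean of Ada, 5.97, is just above the low-signal limit of 5.84, and RMA compresses differences at such levels.

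Adk, the kinase that salvages adenosine, read 8.55, 7.60 and 7.68 in the rhoGFP-positive, 8.96, 8.54 and 8.71 in the rhoGFP-negative and 9.42, 9.08 and 8.79 in the nestinGFP-positive replicates. Against the nestinGFP-positive cells the rhoGFP-positive arrays were all lower, by -1.15 ± 0.26 (2.23-fold, limma adjusted p = 0.0057), which was a call. Between the P4 fractions the arrays overlapped through rhoGFP-positive replicate 1, and the difference of -0.79 ± 0.26 (adjusted p = 0.0486) was under the 2-fold minimum; without that array it was -1.10 (adjusted p = 0.00394) and called. These values come from 1438292_x_at, a type of probe set that may bind related transcripts. The other Adk probe set above low signal, 1416319_at, gave -0.61 between the P4 fractions and -0.90 against the nestinGFP-positive cells (adjusted p = 0.0393 and 0.00405 over all probe sets), the same directions but under 2-fold. Without rhoGFP-positive replicate 2 or nestinGFP-positive replicate 1 the represented difference was -0.98 and -0.99, also under 2-fold, and with the mean of all 6 probe sets it was -0.37. Replicate 1, with high 18S signal, was the highest Adk array of each group; without it in all groups the differences were -0.98 between the P4 fractions, not called, and -1.29 against the nestinGFP-positive cells, called.

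Slc29a1, the equilibrative transporter, read 5.97, 6.73 and 6.88 in the rhoGFP-positive, 5.90, 6.79 and 7.59 in the rhoGFP-negative and 6.88, 7.90 and 7.64 in the nestinGFP-positive replicates. The rhoGFP-positive arrays lay within the range of the rhoGFP-negative arrays and met the nestinGFP-positive arrays only at a shared value of 6.88. The rhoGFP-negative and nestinGFP-positive arrays overlapped between 6.88 and 7.59. Replicate 1, with high 18S signal, was the lowest array of each group (in the P4 fractions the difference without it was -0.38, not called). No difference was called: it was -0.23 between the P4 fractions (95% interval -1.18 to 0.72, limma adjusted p = 0.776), -0.95 against the nestinGFP-positive cells (0.112) and -0.72 for rhoGFP-negative minus nestinGFP-positive cells (0.428). With the replicate block in limma the second had an adjusted p of 0.00236 and the last of 0.0385, both still under 2-fold. The nestinGFP-positive cells share no pool of mice with the others, so in both the number joins arrays by label alone. Without replicate 1 in all groups the second was -0.96 (adjusted p = 0.0252) and the last -0.58 (0.314), neither called. The first interval holds 2-fold lower values, so equality was not shown.

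Of the 6 members, 4 had P4 fractions that did not overlap (Nt5e and Entpd1 higher, Entpd2 and Ada lower in rhoGFP-positive cells), where 38.2% of all genes did so. In the comparison with the nestinGFP-positive cells 5 did, all but Slc29a1, beside 47.8% of all genes. Between the rhoGFP-negative and nestinGFP-positive cells 2 did, Nt5e and Entpd2, both higher, beside 20.6%.

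As a description over the 9 arrays, the genes most like each called member were sought among 2948 other genes whose group means spanned at least 1 log2 unit. Genes with clone, model or accession-like names were left out of these. For Nt5e these were Htra1, a secreted serine protease (Pearson r = 0.997), Ttyh2 of the tweety family of anion channels (0.996), Rtn4rl1, a Nogo receptor homologue (0.995), Arhgap31 (0.995), and Fam53b (0.995). Htra1 averaged 12.92, 11.42 and 9.33 in the rhoGFP-positive, the rhoGFP-negative and the nestinGFP-positive cells, and the others stepped down in the same order. For Entpd2 the nearest were the helicase Dhx32 (0.987), the Notch-modifying glycosyltransferase Mfng (0.986) and Smad2 (0.981), with Dhx32 at 10.18, 11.83 and 11.10. For Ada they were the spindle gene Ska1 (0.982), Sapcd2 (0.982) and Spink2 (0.980), and for Adk Cyp20a1 (0.985), Zik1 (0.982) and Tenm3 (0.978). With 3 groups of 3 arrays such values mostly reflect the group means.

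Of 78 other purine genes listed (ectonucleotidases, purine enzymes, transporters, receptors and adenylyl cyclases), 70 were measured. Between the P4 fractions 3 were called higher and 3 lower in the rhoGFP-positive cells, where 3.61% and 7.32% of all genes were, and their median difference was 0.05. In the comparison with the nestinGFP-positive cells 4 were called higher and 4 lower, where 5.06% and 10.5% of all genes were, with a median of 0.13. Between the rhoGFP-negative and nestinGFP-positive cells limma called 0, with 13 at an unadjusted p below 0.05 and 2 at an adjusted p below 0.05 under 2-fold (Adcy2 at 0.82 and P2rx1 at -0.76). Over all 18193 genes 3285 had an unadjusted p below 0.05 there and 2.03% an adjusted p below 0.05.

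Those higher in the rhoGFP-positive cells in both comparisons were Adcy6, Slc29a2 and Impdh1. Adcy6, an adenylyl cyclase, read 10.76, 11.62 and 11.55 in the rhoGFP-positive and 9.48, 9.61 and 9.66 in the rhoGFP-negative replicates, a difference of 1.73 ± 0.22 (limma adjusted p = 0.000293). Slc29a2, the ENT2 transporter related to Slc29a1, read 8.00, 8.22 and 8.07 against 6.59, 7.11 and 6.91, a difference of 1.22 ± 0.19 (0.000937). Impdh1, the dehydrogenase of guanine nucleotide synthesis with a well-known role in photoreceptors, read 11.14, 11.64 and 11.49 against 10.16, 10.35 and 10.28, a difference of 1.16 ± 0.15 (0.00032). In all 3 genes the P4 fractions did not overlap. Alpl, a phosphatase that can also release adenosine from AMP, was called against the nestinGFP-positive cells alone (1.09, adjusted p = 0.00255) and was 1.00 between the P4 fractions (0.00626), just under 2-fold.

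The enzymes called lower handle adenine nucleotides inside the cell. AMP deaminase Ampd2 read 8.62, 7.90 and 7.88 in the rhoGFP-positive and 11.03, 9.98 and 9.97 in the rhoGFP-negative replicates, a difference of -2.19 ± 0.30 (limma adjusted p = 0.000496), and it was also lower than in the nestinGFP-positive cells (-2.53). Without _x_at and _s_at probe sets its difference between the P4 fractions was -0.97. Adss, which makes the precursor of AMP, was lower by -1.03 and -1.40 in the 2 comparisons. Ak4, a mitochondrial adenylate kinase, was lower between the P4 fractions by -1.52 ± 0.27 (adjusted p = 0.00266), and by -0.65 with the mean of its probe sets. Against the nestinGFP-positive cells the cyclase Adcy8 (-1.80, adjusted p = 0.000757) and the ATP-gated channel P2rx1 (-1.02, 0.000657) were lower. P2rx1 was the 1 of 16 purinergic receptors called in any comparison, and it stayed at 5.72 to 6.95 on all arrays. Adss between the P4 fractions, and Alpl and P2rx1 against the nestinGFP-positive cells, lay so near the minimum that leaving out rhoGFP-positive replicate 2 (Adss, -0.97) or replicate 1 (Alpl at 0.97 and P2rx1 at -0.96) took them under it. Each was called in 7 of the 9 fits that left out a single array, and Adss came down to -0.92 in them.

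**Figure D5:**
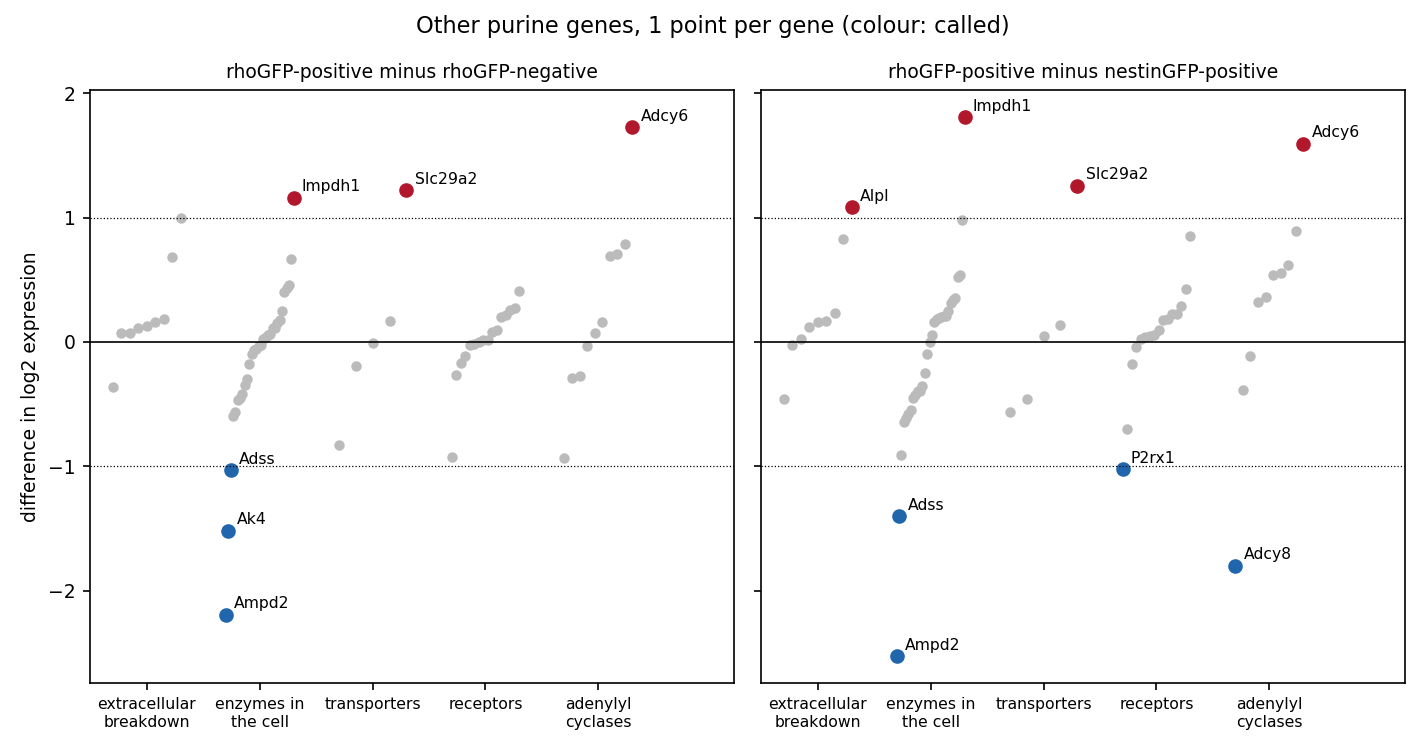
Difference in log2 expression for 70 other purine genes by role, with the rhoGFP-positive cells compared with rhoGFP-negative cells on the left and with nestinGFP-positive cells on the right; each point is a gene, red and blue were called higher and lower, and dotted lines mark 2-fold. Adcy6, Slc29a2 and Impdh1 stand above and Ampd2 and Adss below in both panels.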

How the data were processed

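RNA of 9 pooled samples was measured on Affymetrix arrays; per the labels' protocols it was isolated with Qiagen RNeasy columns. The deposited values are log2 expression computed by RMA as the submitters' processing notes state, with no version named. The method corrects background, normalizes between arrays and summarises probe sets, and it understates differences at low signal. There were no detection calls, so low signal was judged against chemosensory receptor probe sets. Of 45037 probe sets that are no controls (64 are), 34945 had 1 gene symbol, 932 several and 9160 none listed; 34741 symbols were looked up by Entrez ID.

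Differences were tested, two-sided, with limma 3.58.1 in R 4.3.3 (lmFit, eBayes) in 1 fit of all 9 arrays with 3 group means, adjusted over all genes or, for probe sets, over all that are no controls. The number of arrays limits the precision. The steps were tested on simulated data. The members, marker and purine lists, and tests were chosen with earlier results of these data known. Named were all members, other purine genes called in either comparison of the rhoGFP-positive cells, and the genes most correlated with called members; Adcy2, P2rx4, Slc29a3 and Pnp fall outside this rule and were chosen after their values were seen.

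The 3 groups use the same replicate numbers, and no label says that a number stands for a shared pool of mice. Deviations from the group mean on arrays of 1 number correlated at 0.62, 0.45 and 0.45 for the P4 fractions, at 0.54, 0.16 and 0.23 for nestinGFP-positive with rhoGFP-negative cells, and at 0.52, -0.0081 and 0.25 for nestinGFP-positive with rhoGFP-positive cells. For the P4 fractions the numbers were therefore taken to pair arrays, a choice made from the data alone. The nestinGFP-positive pools come from another line and age, so there a number cannot stand for shared mice. RhoGFP-negative replicate 2 correlated more with nestinGFP-positive replicate 3 (0.22) than with replicate 2 (0.16), and no pairing was taken between these groups. The main tests do not use the pairs; the fit with the number as a block was an alternative. The p-values measure the spread between these pools. Alternatives were other normalizations, probe set rules, filters, thresholds, the replicate block and leaving out arrays. Figures were drawn with matplotlib 3.10.9.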

Additional observations from a re-analysis of the deposited data

How the results depend on the processing

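Nt5e and Entpd2 kept their calls between the P4 fractions under every normalization, threshold, filter and left-out array tried, except that with the mean of all probe sets 1 member was called (Nt5e at 0.91, adjusted p = 0.0234, under 2-fold). Nt5e against the nestinGFP-positive cells was called in all of them, at 3.56 to 4.42 over left-out arrays and at 2.01 with the mean of all probe sets, where Adk lost its call (-0.37). The replicate block changed no member's call except that of Nt5e 1422974_at between the P4 fractions (1.17, adjusted p = 0.00587). A filter at the 40th percentile of signal removed Ada and Entpd1, which have no value there.

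Between the rhoGFP-negative and nestinGFP-positive cells 0 members were called with the mean of all probe sets (Nt5e at 1.10, adjusted p = 0.0565), with only the 6 arrays compared and at an adjusted p below 0.01, and 0 to 2 over left-out arrays; member probe sets called were 0 with the 6 arrays, at 0.01 and without replicate 1 in all groups, and 0 to 2 over left-out arrays. Between the P4 fractions 1 member probe set was called at 0.01 and 1 to 3 over left-out arrays. With no minimum difference 18, 27 and 2 of the 70 measured purine genes were called in the order of the report. Of all genes 24.3%, 35.8% and 2.03% were called in that way. With the 2-fold minimum the third comparison had 1 purine gene called without replicate 1 in all groups, and 0 to 1 over left-out arrays.

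Signs that turned belonged to small differences that were not called, and the cause was not tested. With a common median, rhoGFP-positive minus nestinGFP-positive turned to 0.022 in Adk 1421767_at, 0.024 in Adk 1446675_at and 0.021 in Nt5e 1459023_at. With quantile normalization and cyclic loess it was -0.037 and -0.047 in Entpd1 1450939_at (-0.0056 without replicate 1 in all groups), and rhoGFP-negative minus nestinGFP-positive was -0.038 and -0.041 in Entpd1 1453586_at; with loess Adk 1446675_at was -0.028 between the P4 fractions. Over left-out arrays the P4 difference ran from -0.66 to 0.18 in Slc29a1, -0.24 to 0.029 in Adk 1421767_at, -0.039 to 0.073 in Adk 1446675_at and -0.023 to 0.22 in Adk 1446068_at. For rhoGFP-positive minus nestinGFP-positive it ran from -0.087 to 0.023 in Adk 1421767_at, -0.083 to 0.048 in Adk 1446675_at, -0.28 to 0.022 in Entpd1 1453586_at and -0.065 to 0.051 in Nt5e 1459023_at. For rhoGFP-negative minus nestinGFP-positive it ran from -0.037 to 0.26 in Alpl, -0.14 to 0.20 in Slc29a2, -0.055 to 0.21 in Adk 1421767_at, -0.10 to 0.031 in Adk 1446675_at, -0.099 to 0.18 in Entpd1 1453586_at and -0.057 to 0.0032 in Entpd1 1450939_at.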

Other observations

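Several purine genes outside the members differed with an adjusted p below 0.05 but by less than 2-fold, and 3 of them, chosen after their values were seen, are given here. P2rx4, an ATP-gated channel, was lower in the rhoGFP-positive than in the rhoGFP-negative cells (-0.92 ± 0.11 SE on the log2 scale, limma adjusted p = 0.000263), and its arrays did not overlap between the P4 fractions. Slc29a3, an intracellular nucleoside transporter, was lower as well (-0.83, adjusted p = 0.00177), while its relative Slc29a2 was higher. Pnp, the phosphorylase that takes inosine on to hypoxanthine, was higher in the rhoGFP-positive than in the nestinGFP-positive cells (0.98, adjusted p = 0.0012). In that comparison Ada, the enzyme before it, was lower.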
